A study of Mus musculus with 8 samples.

Results

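The genes described here are 6 members of the mouse HoxC cluster, Hoxc4, Hoxc5, Hoxc6, Hoxc8, Hoxc9 and Hoxc10, taken by name from the 55421 gene identifiers of the table. All 6 were found, and 4 of them (Hoxc4, Hoxc5, Hoxc6 and Hoxc8) had a mean of at least 1 TPM over the 8 libraries and entered the test across all genes. Hoxc9 and Hoxc10 fell below that level and are described from their values. TPM is a transcript abundance scaled for gene length and for the total of the library.

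The samples were dissected from mouse embryos at embryonic day 9.5 and held the vagal region, which lies beside somites 1 to 7. The mutants were homozygous for the trex allele of Rdh10, written Rdh10(trex/trex) in the labels and trex here (4 libraries), and were set against wt embryos (4 libraries). The enzyme that Rdh10 encodes oxidises retinol to retinaldehyde, from which retinoic acid is made. Poly-A selected, strand-specific libraries were sequenced, and the design asks which transcripts of this region differ between mutant and wt. The labels name no Cre, transgene or further allele. They do not say whether a sample was 1 embryo or a pool, nor which samples shared a litter, so the spread behind each p-value is that between samples and could be technical in part.

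Hox genes encode homeodomain transcription factors that give cells along the body axis their regional identity. Within a cluster the genes lie in the order in which they are used: those at one end are switched on early and reach far forward, and those at the other end are switched on later and stay further back. In the mouse trunk Hoxc4 and Hoxc5 belong to the neck, Hoxc6 to the level of the forelimb, Hoxc8 and Hoxc9 to the thorax and Hoxc10 to the lumbar level. Retinoic acid is a known inducer of Hox genes at the early end of the clusters, through response elements in the DNA around them.

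All 6 genes lie on the plus strand of chromosome 15 (GRCm38, the assembly of mm10; gene models of GENCODE M21). Hoxc10 (ENSMUSG00000022484) spans chr15:102966796-102971893, Hoxc9 (ENSMUSG00000036139) chr15:102976439-102985099 and Hoxc8 (ENSMUSG00000001657) chr15:102990607-102994111. Hoxc6 (ENSMUSG00000001661) spans chr15:102998257-103011881, Hoxc5 (ENSMUSG00000022485) chr15:102967443-103017429 and Hoxc4 (ENSMUSG00000075394) chr15:103018934-103036852. The long Hoxc5 model includes a transcript whose first exon, 166 bases, lies inside an exon of Hoxc10, so reads there could be counted for either gene, also in a strand-specific library. The other pairs of members shared no exonic base, and their transcripts had no identical run longer than 22 bases, the longest being between Hoxc8 and Hoxc9.

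The homeobox, the coding stretch of 180 bases for the DNA-binding homeodomain, shows how far apart the members are as targets of sequencing reads. The homeoboxes of Hoxc4, Hoxc6 and Hoxc8 are printed, since the results turn on telling these genes apart. They are given 5′ to 3′ on the plus strand from GENCODE M21 coding sequence, at chr15:103035663-103035842 for Hoxc4, chr15:103010754-103010933 for Hoxc6 and chr15:102992571-102992750 for Hoxc8. Capitals mark the bases that differ from Hoxc6, which is therefore in lower case throughout.
Hoxc4: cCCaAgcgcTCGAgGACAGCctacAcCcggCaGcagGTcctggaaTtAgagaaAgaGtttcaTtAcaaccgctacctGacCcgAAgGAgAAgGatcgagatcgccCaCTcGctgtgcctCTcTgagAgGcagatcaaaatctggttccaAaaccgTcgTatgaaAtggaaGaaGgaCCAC
Hoxc6: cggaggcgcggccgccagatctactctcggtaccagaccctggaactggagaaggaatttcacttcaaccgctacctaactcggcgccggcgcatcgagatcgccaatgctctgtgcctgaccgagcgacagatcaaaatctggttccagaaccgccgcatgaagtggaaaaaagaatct
Hoxc8: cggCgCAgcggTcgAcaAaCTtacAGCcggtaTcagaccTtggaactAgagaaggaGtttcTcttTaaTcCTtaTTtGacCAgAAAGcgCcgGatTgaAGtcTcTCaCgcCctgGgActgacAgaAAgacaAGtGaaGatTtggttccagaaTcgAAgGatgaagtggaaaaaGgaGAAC
The Hoxc4 homeobox differed from that of Hoxc6 at 53 of 180 bases and that of Hoxc8 at 58. Over all pairs of the 6 genes identity ran from 58.3% to 77.8%, with Hoxc5 and Hoxc6 the closest pair. Hoxc9 and Hoxc10 were 71.7% identical to each other.

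Recovered depth, the whole reads that the TPM values correspond to, lay between 20928982 and 23648646 per library. Library correlations of log2(TPM + 1) were 0.964 to 0.988 within trex, 0.979 to 0.987 within wt and 0.944 to 0.981 between the groups. Markers of the tissue were present: Sox10, of migrating neural crest, stood at 66.4, 50.6, 39.5 and 43.9 TPM in trex replicates 1 to 4 and at 34.4 to 37.2 TPM in wt. Six3, of the forebrain, was at 0 TPM in all 4 trex libraries and at most 0.126 TPM in wt. Rdh10 itself stood at 106, 66.2, 62.7 and 69.0 TPM in trex, against 40.96, 36.3, 40.3 and 37.6 TPM in wt. Since the allele is not known from the labels to reduce Rdh10 mRNA, these values are no check of genotype. Trex replicate 1 stood apart from the other trex libraries for Rdh10 and for 3 gene lists. Y-linked transcripts were present in wt replicates 2 and 3 and at most 0.0662 TPM in sum in the other 6 libraries. In such bulk samples fewer cells of a type and less RNA per cell cannot be told apart.

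The HoxC genes did not all differ alike between the genotypes. Hoxc6 and Hoxc8 were higher in the mutants, 6.14-fold and 57.1-fold by the ratio of group means. Hoxc9 was present in every trex library and in wt by 1 read in all. Hoxc4 and Hoxc5, at the early end, had lower means in the mutants, 1.39-fold and 1.34-fold, and neither passed the test. Hoxc10 was not detectable beyond 1 read in either genotype.

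Of the 4 members tested, 2 were called (adjusted p below 0.05 in limma), both higher in trex and none lower, where 4.94% of the 15717 tested genes were called higher, 3.77% lower and 8.71% in either direction. For Hoxc4, Hoxc6 and Hoxc8, 3 of the 4 tested, the trex and wt libraries did not overlap, as for 21.8% of all tested genes. The median log2 difference of the 4 tested members was 1.13, and that of all tested genes 0.04. The 4 differences had both signs, so this median describes no single gene.

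**Figure D1:**
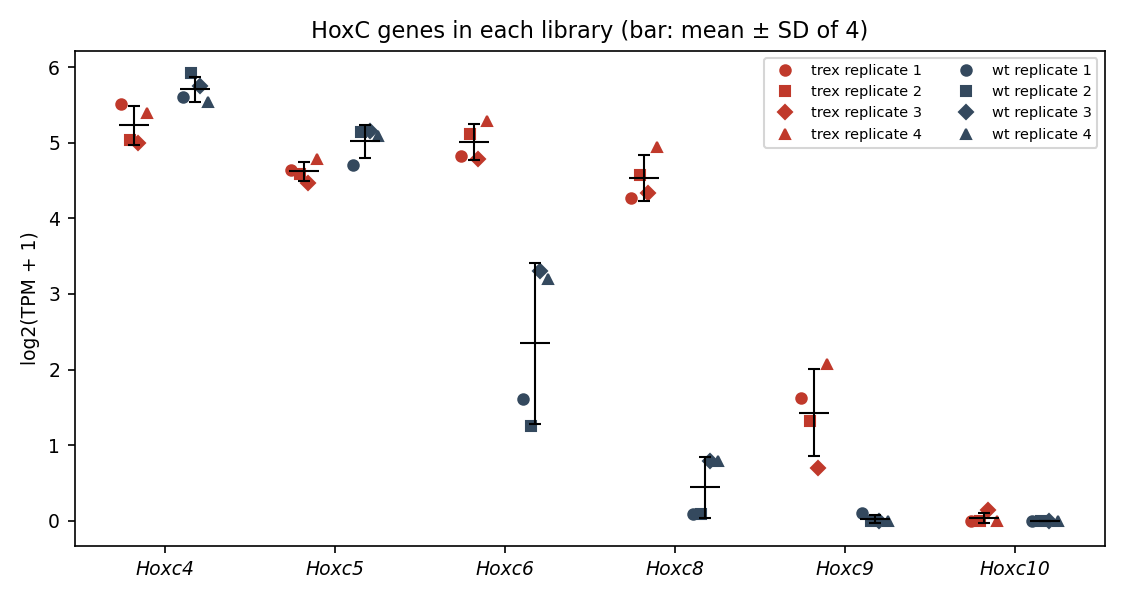
Level of each HoxC gene in each library, on a log2(TPM + 1) axis, with trex left of wt, a point per library and black bars for the group mean ± SD on that scale. Hoxc6, Hoxc8 and Hoxc9 sit higher in all 4 trex libraries than in any wt library, Hoxc4 sits lower in all 4, and the Hoxc5 groups overlap.

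Hoxc4, the member at the early end of the cluster and a gene of the cervical level, had the highest mean level of the 6 in both genotypes. It stood at 44.6, 31.7, 30.9 and 41.2 TPM in trex replicates 1 to 4, against 47.9, 59.6, 52.8 and 45.6 TPM in wt replicates 1 to 4. Every trex library was below every wt library, although the highest trex library (replicate 1) and the lowest wt library (replicate 4) were close. Group means (± SD, n = 4 each) were 37.1 ± 6.82 TPM in trex, against 51.5 ± 6.18 TPM in wt. In limma the log2 difference was -0.47 (SE 0.13, adjusted p = 0.0618), which does not pass. For the gene alone, an exact two-sided permutation test reached its lower limit for 4 libraries a group, p = 0.0286. The call turned on single settings: without trex replicate 1 the adjusted p was 0.0283, and in 5 other alternatives, 3 of them other scalings of the libraries, it also fell below 0.05. The log2 difference was negative in all 22 alternatives.

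Hoxc5, the next gene along and the other cervical member, stood at 24.0, 23.0, 21.2 and 26.5 TPM in trex, against 25.0, 34.2, 34.8 and 33.0 TPM in wt. In wt, 3 libraries lay well above every trex library, and wt replicate 1 lay inside the trex range. Group means (± SD, n = 4 each) were 23.7 ± 2.20 TPM in trex, against 31.7 ± 4.54 TPM in wt. The log2 difference was -0.40 ± 0.11 (SE), not called (adjusted p = 0.0624 in limma; exact permutation p = 0.0571). Without wt replicate 1 the adjusted p was 0.0300. The ratio of Hoxc5 to Hoxc4 was 0.648 ± 0.0809 in trex and 0.619 ± 0.0891 in wt, ranges of 0.538 to 0.725 and 0.522 to 0.723, so the balance between these neighbours differed by less than its spread between libraries.

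Hoxc6, a gene of the forelimb level that lies between Hoxc5 and Hoxc8, stood at 27.4, 33.8, 26.7 and 38.2 TPM in trex, against 2.06, 1.39, 8.89 and 8.22 TPM in wt. In reads this was 381, 469, 341 and 540 in trex and 27, 19, 125 and 115 in wt. The trex libraries were close together and all far above wt, while wt fell into a low pair (replicates 1 and 2) and a higher pair (replicates 3 and 4). Group means (± SD, n = 4 each) were 31.5 ± 5.48 TPM in trex, against 5.14 ± 3.96 TPM in wt, with coefficients of variation of 17.4% and 77.0%. In limma the log2 difference was 2.66 (SE 0.45, adjusted p = 0.0143), and the exact permutation p was 0.0286. Leaving out any 1 library gave folds of 4.94 to 8.11 and kept the call, with an adjusted p of at most 0.04995 (without trex replicate 4). With sex, read from the Y-linked transcripts, as a covariate the log2 difference was 2.60 and the adjusted p 0.117, which does not pass. Only wt replicates 2 and 3 held Y-linked transcripts, so that fit sets trex against wt replicates 1 and 4 alone. A call lost with this covariate, here or below, is therefore no measure of an effect of sex.

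Hoxc8, a gene of the thoracic and posterior brachial level, showed the largest difference of the tested members. It stood at 18.2, 22.9, 19.2 and 29.95 TPM in trex, against 0.0650, 0.0623, 0.726 and 0.729 TPM in wt. The wt values were 1, 1, 12 and 12 reads, beside 298, 373, 289 and 498 reads in trex, so wt replicates 1 and 2 held the gene at the level of a single read. Group means (± SD, n = 4 each) were 22.6 ± 5.30 TPM in trex, against 0.396 ± 0.383 TPM in wt. From summed reads scaled to depth the ratio was 56.2, with a 95% interval of 38.2 to 86.3 that covers counting error only. In limma the log2 difference was 4.10 (SE 0.23, adjusted p = 0.000169), and the exact permutation p was 0.0286. The gene was called in all 22 alternatives, with adjusted p between 1.4e-05 and 0.00322. Its log2 difference ran from 2.34 (pseudocount of 5) to 6.30 (voom on recovered reads).

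Hoxc9, a thoracic gene, stood at 2.07, 1.502, 0.621 and 3.22 TPM in trex, against 0.0757, 0, 0 and 0 TPM in wt. These values rest on 29, 21, 8 and 46 reads in trex and on 1, 0, 0 and 0 reads in wt. Every trex library was above every wt library, with trex replicate 4 highest and trex replicate 3 lowest of the mutants. Group means (± SD, n = 4 each) were 1.85 ± 1.09 TPM in trex, against 0.0189 ± 0.0379 TPM in wt. From 104 reads against 1, the ratio was 104.3 with a 95% interval of 18.3 to 4157 for counting error. A library at 0 allows up to 3 reads, which is 0.211 to 0.218 TPM in wt replicates 2 to 4. The gene was outside the main test because its mean over the 8 libraries was 0.936 TPM. Fitted with no filter on TPM, limma gave it a log2 difference of 1.40 (SE 0.26) and an adjusted p of 0.0380, where 1.13% of the 30544 genes in that fit were called higher. It also passed the filter when 1 wt library was left out, and was then not called (adjusted p 0.0556 to 0.0778 over the 4 fits).

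Hoxc10, of the lumbar level, was found as 1 read in trex replicate 3 (0.0988 TPM) and at 0 in the other 7 libraries. The limit of 3 reads was 0.268 to 0.296 TPM, so a level below that was not detectable at this depth in either genotype. No fold is given. Beyond it, Hoxc11, Hoxc12, Hotair and Mir196a-2 were listed at 0 in all 8 libraries. Hoxc13 held 0.0704, 0.141, 0.306 and 0.0692 TPM in trex, against 0, 0.143, 0.0696 and 0 TPM in wt, levels near the limit of detection. Mir615, a microRNA gene within the cluster, was listed at 1.92 TPM in wt replicate 2 and at 0 elsewhere, and poly-A selection does not capture mature microRNAs.

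**Figure D2:**
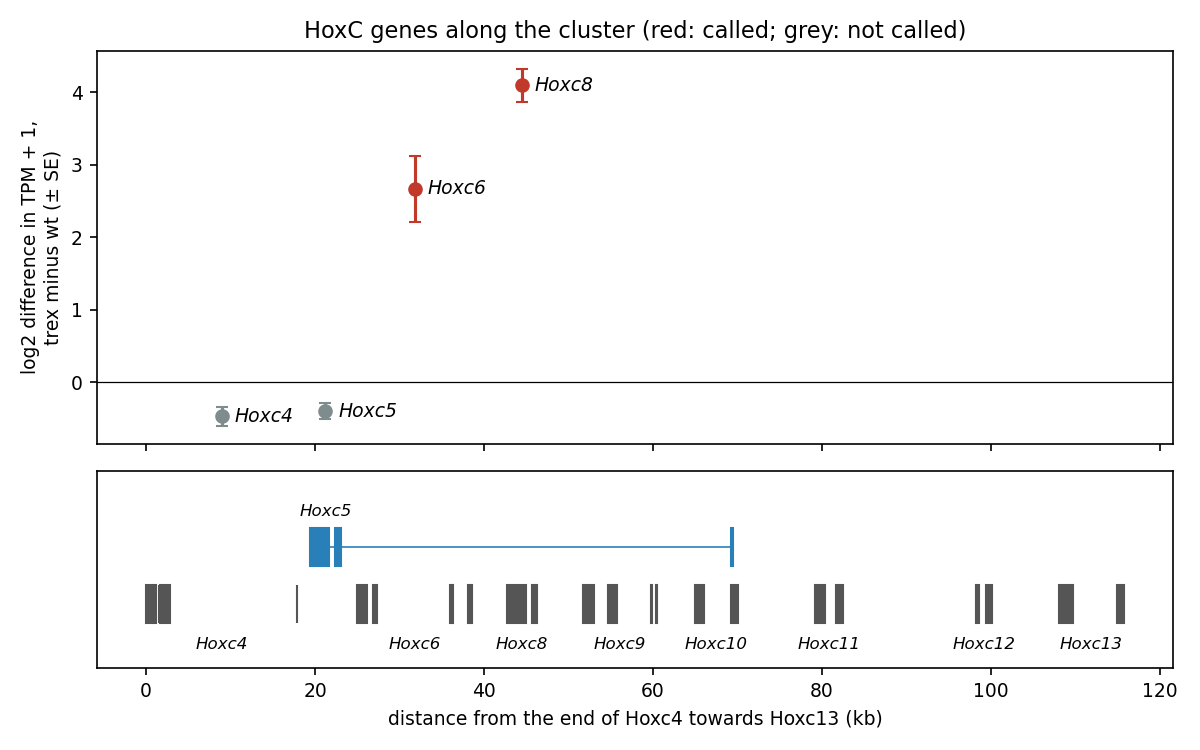
Upper panel, log2 difference (trex minus wt, log2(TPM + 1) scale, bars of 1 SE) of the 4 tested HoxC genes against the distance of the middle of the gene's exons (for Hoxc5, those between Hoxc6 and Hoxc4) from the end of Hoxc4, in kb; lower panel, exons of the cluster's genes, with the long Hoxc5 model drawn above the others. Hoxc4 and Hoxc5 lie below 0 and Hoxc6 and Hoxc8 above it; Hoxc9 and Hoxc10, outside the test, have no point.

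Measured from the end of Hoxc4 to the end of each gene, Hoxc5 lay 19.4 kb away at -0.40 and Hoxc6 25.0 kb away at 2.66 (log2 differences). The change of sign fell between these neighbours. Hoxc8 lay 42.7 kb away at 4.10, and Hoxc9 51.8 kb away at 1.40. The smaller value of Hoxc9 is on a scale that understates the change of a gene near 0, so the log2 differences give no order between Hoxc8 and Hoxc9.

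The makeup of HoxC transcripts differed between the genotypes. Summed over the 6 genes, which TPM allows because it is per length, the level (± SD, n = 4 each) was 116.8 ± 16.7 TPM in trex, with a range of 98.8 to 139.1. In wt it was 88.8 ± 9.98 TPM, with a range of 75.2 to 97.1. Hoxc4 and Hoxc5 together held 52.2% ± 4.90 of that sum in trex and 93.9% ± 4.56 in wt. Hoxc6 held 27.01% ± 2.62 in trex and 5.69% ± 4.17 in wt. Hoxc8 held 19.2% ± 2.51 in trex and 0.433% ± 0.414 in wt, and Hoxc9 1.51% ± 0.716 in trex and 0.0252% ± 0.0504 in wt. In every trex library Hoxc6 to Hoxc10 made up between 41.1% and 51.5% of HoxC transcripts, and in every wt library between 1.53% and 10.2%. These shares are set by the same values as the differences above and are a description.

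**Figure D3:**
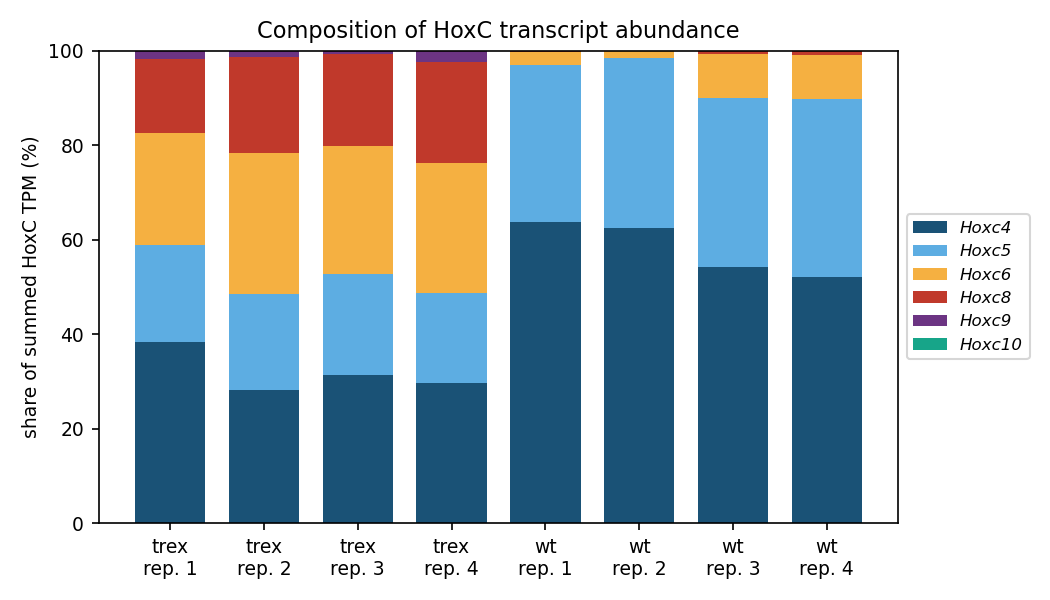
Percent of the summed TPM of the 6 HoxC genes held by each gene, as stacked bars from 0 to 100%, a bar per library with trex left of wt. Hoxc4 and Hoxc5 fill between 48.5% and 58.9% of each trex bar and between 89.8% and 98.5% of each wt bar.

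By mean TPM the order of levels in trex was Hoxc4, Hoxc6, Hoxc5, Hoxc8, Hoxc9. There Hoxc4 overlapped with Hoxc6 and Hoxc5 with Hoxc8, while the lowest Hoxc6 library (26.7 TPM) was just above the highest Hoxc5 library (26.5 TPM). In wt the order was Hoxc4, Hoxc5, Hoxc6, Hoxc8, Hoxc9, and no neighbours overlapped down to Hoxc8. The ratio of Hoxc6 to Hoxc5 was 1.33 ± 0.155 in trex and 0.157 ± 0.112 in wt. That of Hoxc8 to Hoxc6 was 0.712 ± 0.0540 in trex (0.665 to 0.784) and 0.0616 ± 0.0279 in wt (0.0315 to 0.0887), every trex ratio being above every wt ratio.

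Over the 8 libraries Hoxc6 and Hoxc8 had a Pearson r of 0.94 on the log2(TPM + 1) scale, and 0.90 after group means were subtracted. Hoxc4 and Hoxc5 had 0.82 and 0.54. Hoxc4 with Hoxc8 had -0.78 over the libraries and -0.11 after group means were subtracted. The 8 points share library depth and the genotype split, so these are descriptions. Among the 10856 other genes with a mean of at least 5 TPM and outside the Hox family, those whose profile was most like the mean profile of the 4 tested members were Peg10 (r = 0.989), Copg1 (0.987), Pml (0.983), Actn4 (0.981) and Frmd6 (0.979). Peg10, an imprinted gene derived from a retrotransposon, averaged 999.3 ± 58.6 TPM in trex, against 679.8 ± 62.6 TPM in wt. After group means were subtracted the 5 most alike were Setmar (0.971), Tkt (0.959), Copg1 (0.941), Pkdcc (0.912) and Got2 (0.903), over the same 8 libraries.

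Set beside their paralogs, the genes of the same group number in the other clusters, the HoxC genes had log2 differences of the same sign as every tested paralog of groups 4, 5, 6 and 8, also under each other scaling of the libraries. Of 14 paralogs of groups 4 to 10, 13 were tested, 2 were called higher and 4 lower, where 4.94% and 3.77% of all tested genes were. In group 4, Hoxa4 fell to 39.0 ± 5.95 TPM in trex, against 74.8 ± 12.9 TPM in wt (log2 difference -0.92, adjusted p = 0.0121 in limma). Hoxb4 (49.5 ± 5.58 TPM in trex, 65.8 ± 4.04 TPM in wt) and Hoxd4 (13.9 ± 0.584 TPM in trex, 19.1 ± 2.24 TPM in wt) were also called lower, with log2 differences of -0.41 and -0.42, close to the -0.47 of Hoxc4. The call of Hoxb4 was lost without any 1 of 4 libraries (adjusted p up to 0.0932) and that of Hoxd4 without any 1 of 5 (up to 0.0854). In group 5, Hoxb5 fell to 22.9 ± 2.40 TPM in trex, against 36.2 ± 3.29 TPM in wt (adjusted p = 0.00852), and Hoxa5 was not called (48.3 ± 2.93 TPM in trex, 53.2 ± 12.6 TPM in wt, adjusted p = 0.679).

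None of the 4 tested paralogs of Hoxc6 and Hoxc8 was called. Hoxa6 held 7.74, 8.95, 9.06 and 5.26 TPM in trex, against 1.68, 1.01, 5.68 and 3.54 TPM in wt (not called, adjusted p = 0.0619 in limma, and 0.0421 without wt replicate 3). Hoxb6 averaged 35.8 ± 11.002 TPM in trex, against 31.1 ± 2.74 TPM in wt (adjusted p = 0.688). Hoxb8 averaged 70.6 ± 12.03 TPM in trex, against 50.7 ± 7.44 TPM in wt (adjusted p = 0.0646). Hoxd8 held 12.6, 14.7, 13.7 and 14.3 TPM in trex, against 1.01, 0.514, 7.80 and 7.40 TPM in wt, without overlap and without a call (adjusted p = 0.0662). In wt, Hoxa6 and Hoxd8 were, like Hoxc6 and Hoxc8, lower in replicates 1 and 2 than in replicates 3 and 4.

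The difference between a HoxC gene and its paralog was tested for 12 pairs by exact permutation of log2(TPM + 1) differences, with Benjamini-Hochberg adjustment over the pairs. The change of Hoxc8 exceeded that of Hoxb8 by 3.63 on the log2 scale and that of Hoxd8 by 2.16. The change of Hoxc6 exceeded that of Hoxa6 by 1.40 and that of Hoxb6 by 2.52. In each of these 4 pairs the trex libraries all lay beyond the wt libraries (exact permutation p = 0.0286, the lower limit here), and the adjusted p was 0.0857, which does not pass. With 4 of 12 pairs at that limit none could pass, however large its difference, so the missing call carries no information. In the other 8 pairs the libraries overlapped, with adjusted permutation p between 0.137 and 0.743.

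Among the group 9 genes, Hoxa9 (6.65 ± 0.397 TPM in trex, 0.948 ± 1.01 TPM in wt, adjusted p = 0.0126 in limma) and Hoxb9 (330.8 ± 51.7 TPM in trex, 59.2 ± 48.0 TPM in wt, adjusted p = 0.0342) were called higher, Hoxb9 not without any of 5 single libraries (adjusted p up to 0.0871). In wt replicates 1 to 4 Hoxa9 stood at 0.0989, 0.0632, 1.96 and 1.67 TPM, and Hoxb9 at 29.3, 8.57, 88.9 and 110 TPM. Both were lower in replicates 1 and 2 than in replicates 3 and 4. Hoxc9 was the lowest of the group in trex, at 1.85 TPM. Hoxd9 was at 13.4, 19.9, 21.3 and 17.5 TPM in trex, against 0, 0, 15.1 and 10.1 TPM in wt (adjusted p = 0.129). In group 10, Hoxd10 held 0.286, 0.957, 2.60 and 0.469 TPM in trex, against 0, 0, 3.40 and 1.52 TPM in wt. The groups overlapped and the gene did not pass (adjusted p = 0.945). Hoxa10, below the filter, was at most 0.231 TPM in trex, and at 2.25 and 1.37 TPM in wt replicates 3 and 4. Hoxc10 was at 0 in those wt libraries. With sex as a covariate none of the 6 called paralogs kept its call (adjusted p 0.0893 to 0.211).

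**Figure D4:**
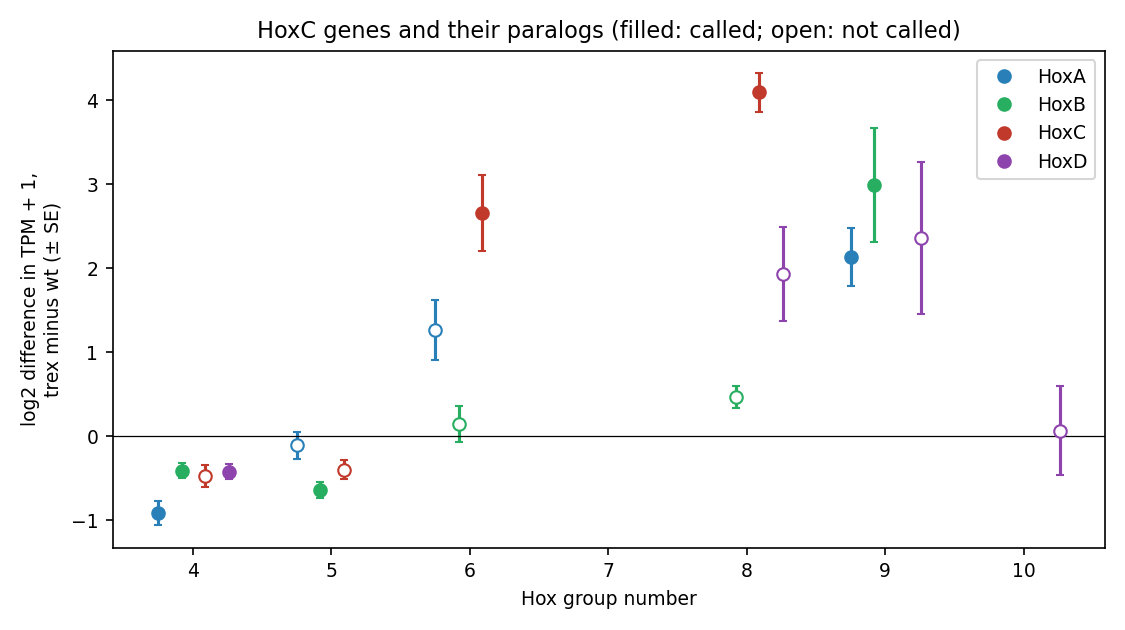
Log2 difference (trex minus wt, log2(TPM + 1) scale) of Hox genes of groups 4 to 10 by group number, coloured by cluster, with bars of 1 SE; filled points passed the test, open points did not, and genes outside the test (Hoxc9, Hoxc10 and Hoxa10) have no point. Hoxc8, at 4.10, is the highest point, and the group 4 genes all lie below 0.

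Genes on either side of the cluster on chromosome 15 were examined in the same fit. Of 12 neighbours 11 were tested, 1 was called higher and none lower, where 4.94% and 3.77% of all tested genes were. The median log2 difference of the neighbours was 0.10, and 4 of the 11 had an unadjusted p below 0.05 in limma. The called one, Atf7, a transcription factor gene, averaged 22.6 ± 3.75 TPM in trex, against 16.1 ± 0.687 TPM in wt (adjusted p = 0.0383 in limma), and its call ended on leaving out any of 6 single libraries, with adjusted p up to 0.118. Calcoco1 and Atp5g2, on the Hoxc13 side like Atf7, were also higher in every trex library than in any wt library. Their log2 differences were 0.44 and 0.68, without a call (adjusted p = 0.0920 and 0.0739 in limma). The other tested neighbours overlapped between the groups, where 21.8% of all tested genes did not.

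Factors that act on Hox genes were looked at next, from lists chosen with earlier results of these data known. Of 11 genes of the caudal programme upstream of Hox genes, 9 were tested, 3 were called higher and 1 lower. Among all tested genes 4.94% were called higher and 3.77% lower. Cdx1, a caudal homeobox gene that is itself a retinoic acid target, stood at 4.06, 4.07, 3.99 and 3.99 TPM in trex, against 5.89, 7.36, 13.1 and 10.9 TPM in wt (adjusted p = 0.0292 in limma). Nr6a1, a nuclear receptor gene of trunk development, stood at 106, 77.9, 71.5 and 72.4 TPM in trex, against 53.7, 48.5, 59.8 and 61.5 TPM in wt (adjusted p = 0.0424). Wnt3a, a signal of the caudal end of the embryo, averaged 18.7 ± 6.23 TPM in trex and 9.94 ± 1.31 TPM in wt (adjusted p = 0.0432). Cdx2 overlapped between the groups, at 0.767, 1.31, 2.75 and 4.37 TPM in trex and 0.0814, 0.156, 2.35 and 1.45 TPM in wt. Of the 8 libraries left out in turn, 5 ended the call of Cdx1 (adjusted p up to 0.0785), 6 that of Nr6a1 (up to 0.127) and 6 that of Wnt3a (up to 0.129).

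Of 9 genes for partners that bind DNA together with Hox proteins, all were tested, none was called higher and 2 lower. Pbx2 averaged 300.8 ± 11.5 TPM in trex, against 336.5 ± 4.35 TPM in wt (log2 difference -0.16, adjusted p = 0.0469 in limma). Of 18 chromatin regulators of the Polycomb and Trithorax kind, which hold Hox clusters off or on, 2 were called higher and none lower. Ezh1, a Polycomb methyltransferase gene, was at 16.6 ± 3.81 TPM in trex, against 10.2 ± 0.589 TPM in wt (adjusted p = 0.0328), and Kdm6b, which removes the Polycomb mark, at 106.4 ± 17.7 TPM in trex, against 77.4 ± 3.52 TPM in wt (adjusted p = 0.0435). With each library left out in turn the call ended in 6 of 8 cases for Pbx2 (adjusted p up to 0.1495), in 6 for Ezh1 (up to 0.104) and in 7 for Kdm6b (up to 0.1098). Cdx1, Nr6a1, Wnt3a, Pbx2, Ezh1 and Kdm6b were not called with sex as a covariate (adjusted p 0.176 to 0.252), nor was Atf7 (0.2097). Of 21 retinoic acid response genes 9 were called lower and 2 higher, where 3.77% and 4.94% of all tested genes were. With sex as a covariate 1 of these 11 stayed called, Tshz1, a zinc finger gene, at 51.3 ± 1.146 TPM in trex, against 110.5 ± 8.68 TPM in wt (adjusted p = 0.00322).

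Markers of other tissues were set beside the HoxC values library by library. Markers of the liver bud, an outgrowth of the foregut beside the heart, summed to 27.2, 53.0, 311.1 and 640.1 TPM in trex replicates 1 to 4 and to 23.2, 15.4, 227.3 and 233.2 TPM in wt replicates 1 to 4. None of the 12 tested liver genes was called in limma, none had an unadjusted p below 0.05, and voom called none. In trex replicate 1 and wt replicate 1 Alb, Fgb, Fga and Hnf4a stood at no more than 0.145 TPM. In wt the libraries with high liver markers, replicates 3 and 4, were those with the higher Hoxc6 and Hoxc8. In trex, replicate 1 had liver markers near those of wt replicate 1, and held 27.4 TPM of Hoxc6 and 18.2 TPM of Hoxc8, against 2.06 and 0.0650 TPM in wt replicate 1. With the mean liver level as a covariate the log2 difference was 2.42 for Hoxc6 (adjusted p = 0.0157 in limma) and 3.96 for Hoxc8 (adjusted p = 9.04e-05), and both remained called. That fit holds a single marker score over 8 libraries. It is no test of the share of other tissue or of the level of the dissection.

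**Figure D5:**
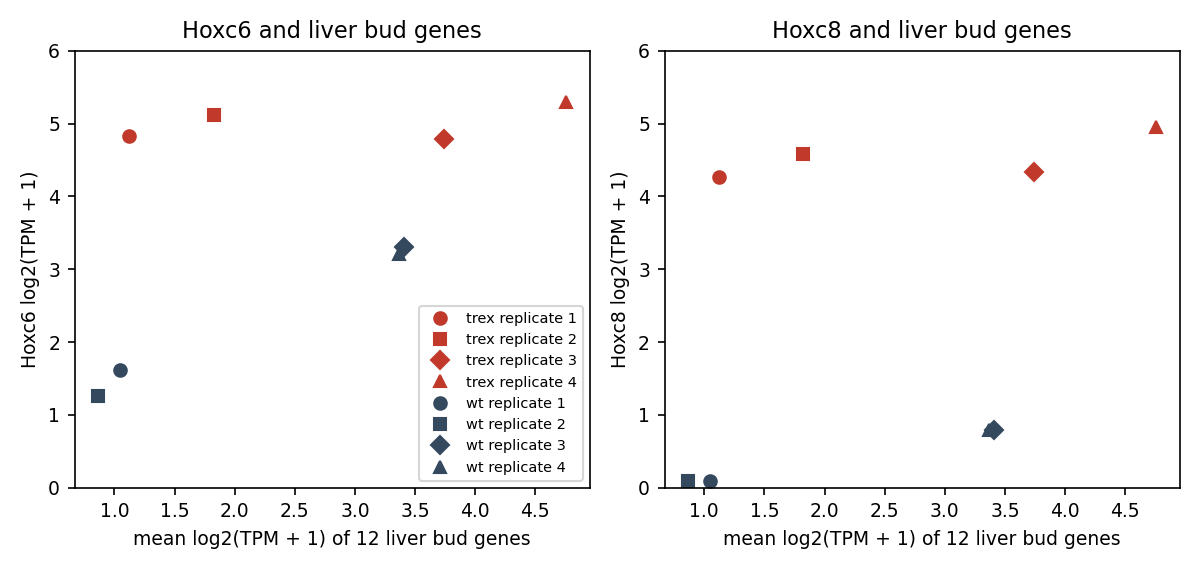
Level of Hoxc6 and Hoxc8 (log2(TPM + 1)) against the mean log2 level of the liver marker list, a point per library, with trex and wt in different colours. For both genes every trex point lies above every wt point, so the same would be seen along any horizontal axis.

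Markers of the tail end, the caudal axis list, summed to 162.0, 108.2, 111.7 and 99.9 TPM in trex and to 117.6, 102.9, 106.5 and 99.2 TPM in wt. These sums overlapped between the groups, and of 8 tested members of 12, 1 (Wnt3a) was called higher and none lower. In limma 4 of the 8 had an unadjusted p below 0.05. The median log2 difference of the 8 was 0.45, beside 0.04 for all tested genes. Cdx4, Msgn1 and Evx1 stood at 0.783 TPM or less in every library. T, the brachyury gene of the tail bud and notochord, was at 21.1, 10.9, 10.3 and 11.99 TPM in trex, against 7.95, 6.55, 7.55 and 7.73 TPM in wt. Every trex library was above every wt library, without a call. Markers of lateral plate and limb summed to 246.1, 283.0, 354.5 and 387.6 TPM in trex and to 202.9, 226.1, 236.4 and 251.8 TPM in wt, and of 12 tested 3 were called higher and 2 lower. Beside both lists, 4.94% of all tested genes were called higher and 3.77% lower. Osr1, of intermediate and lateral mesoderm, averaged 18.2 ± 3.42 TPM in trex, against 29.8 ± 3.17 TPM in wt (adjusted p = 0.0197 in limma, and up to 0.076 when any of 3 single libraries was left out). Isl1, of motor neurons and heart and hindlimb progenitors, averaged 26.8 ± 2.58 TPM in trex, against 37.2 ± 4.14 TPM in wt (adjusted p = 0.0276, and up to 0.0989 when any of 4 was left out). Hand1, of heart and lateral mesoderm, was at 63.3 ± 40.0 TPM in trex, against 9.56 ± 3.71 TPM in wt (adjusted p = 0.0328 in limma, and up to 0.104 when any of 6 single libraries was left out).

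The other marker lists are given by their counts and summed levels. The counts are to be read beside the 4.94% of all tested genes called higher and the 3.77% called lower. Hindbrain and neural tube markers summed to between 234.7 and 301.5 TPM in trex and between 323.8 and 394.1 TPM in wt, with 4 of 9 called lower and 1 higher. Spinal motor neuron genes, with Isl1 among them, summed to between 351.7 and 456.1 TPM in trex and between 279.1 and 352.7 TPM in wt, with 4 of 8 called lower and 1 higher. Such a sum follows its most abundant genes. The mean log2 level of the 8 tested genes went the other way, at 2.89 to 3.71 in trex and 3.89 to 4.11 in wt. For vagal neural crest genes the sums were 174.8 to 266.5 TPM in trex and 203.4 to 235.7 TPM in wt, with 2 of 8 called lower. For somite genes they were 505.8 to 722.7 TPM in trex and 464.2 to 542.7 TPM in wt, with 1 of 8 called higher. Genes of the anterior head stayed low, at 6.68 to 12.5 TPM in trex and 11.7 to 20.7 TPM in wt in sum, with 2 of 4 tested called lower. Endothelial markers summed to between 374.5 and 456.3 TPM in trex and between 309.6 and 345.3 TPM in wt, with 2 of 8 called higher. Cardiomyocyte genes ranged widely in both genotypes, from 220.0 to 2526 TPM in trex and from 308.2 to 2552 TPM in wt, as did primitive erythroid genes, from 3089 to 15948 TPM in trex and from 7204 to 16181 TPM in wt. None of these 10 and 8 genes was called by limma or voom, and none had an unadjusted p below 0.05. In none of these lists, nor among the caudal axis and lateral plate genes, was a call kept with sex as a covariate.

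Whether the share of such tissue, or the level of the dissection, had a part in the HoxC differences was not tested.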

How the data were processed

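RNA-seq of 8 samples, 4 trex and 4 wt (replicates 1 to 4 of wt by the replicate label, numbered 5 to 8 in the titles), was analysed from a table of TPM values that the authors deposited, with a column for each sample that adds up to 1000000. CASAVA 1.8.2, STAR and mm10 are named in the submitters' processing notes. How reads were counted, and with which annotation, strand setting and gene lengths, is not given in the sources used here. Symbols, coordinates, exonic lengths and homeobox sequences came from GENCODE M21, in which 55240 of 55421 identifiers matched.

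The members and lists were chosen with earlier results of these data known. Genes with a mean of at least 1 TPM over the 8 libraries (15717) were tested with limma 3.58.1 in R 4.3.3 (lmFit, eBayes with trend), applied to log2(TPM + 1), genotype as the only term, two-sided, with Benjamini-Hochberg adjustment over all of them. An adjusted p below 0.05 made a call, and adjusted p values of genes come from limma unless an exact test is named. Log2 differences are trex minus wt on that scale, which understates changes of low genes, and folds are ratios of mean TPM. The step was tested on simulated data. Exact permutation tests went through every split of the 8 libraries into 4 and 4, and counting intervals used scipy 1.17.1.

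TPM keeps no depth. Multiplied by exonic length, 98.7% to 98.9% of low values per library (up to 200 reads) were whole reads within 0.001 read, which gave the reads quoted; those of the 6 members were whole within 0.000337 read. Intervals and the limit of 3 reads cover counting error only. Named were the 6 members, detected genes of the rest of the cluster, the paralogs, up to 3 called genes with the smallest p from each other list described gene by gene, and the 5 genes most alike in profile. Sox10, Six3, Cdx2, T, Calcoco1, Atp5g2 and the liver and tail markers named at low levels were chosen after their values were seen. Some genes and sequences that these rules took are not reported here. Alternatives were other pseudocounts, filters, scalings, variance models, a replicate block, sex or liver level as a covariate, voom on recovered reads, and each library left out.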

Additional observations from a re-analysis of the deposited data

Results flagged for a closer look

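Dixon's criterion was applied to 91 sets of values from 4 libraries, and in 5 of them a library at the top or bottom stood far from its group. Chance flags about 1 set in 20. None was a HoxC gene. Rdh10 stood at 106 TPM in trex replicate 1 and at 62.7 to 69.0 TPM in the other trex libraries. In the same library the mean log2 level was 5.41 for the genes on either side of the HoxC cluster (5.25 to 5.26 in the others), 4.82 for the caudal genes upstream of Hox genes (4.40 to 4.46) and 4.63 for vagal neural crest genes (4.25 in the others). In wt replicate 1 the mean log2 level of the chromatin regulators was 5.62 (5.49 to 5.50 in the others). Without trex replicate 1 the log2 difference was 2.72 for Hoxc6 (adjusted p = 0.0193 in limma) and 4.18 for Hoxc8 (adjusted p = 0.000461).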

How the results depend on the processing

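Over 22 alternatives the log2 differences of Hoxc4, Hoxc5, Hoxc6 and Hoxc8 kept their sign. Hoxc9 entered the test in 6 of them (log2 difference 1.39 to 1.48) and was called in 2, and Hoxc10 has no value to compare. Hoxc6 kept its call in 21 of them (adjusted p 0.00294 to 0.117 in limma) and Hoxc8 in all 22. Hoxc4 was called lower in 6 (log2 difference -0.68 to -0.34, adjusted p 0.00149 to 0.316) and Hoxc5 in 4 (-0.54 to -0.27, 0.0028 to 0.325). The number of HoxC members called, 2 in the fit as reported, was 5 with TPM recomputed without globin, mitochondrial and X- and Y-linked genes (3 higher, Hoxc9 included, and 2 lower), 4 with array weights, 4 with voom and 1 with sex as a covariate, and 2 to 3 with 1 library left out. The number of all genes called, 1369 as reported, was 694 with no filter, 5524 with array weights and 39 with sex as a covariate, and ran from 199 (without wt replicate 2) to 2926 (without trex replicate 2) with 1 library left out. With sex as a covariate the genotype difference rests on wt replicates 1 and 4 alone, so the loss of calls there cannot be credited to sex. The cause of these changes was not tested. The split of calls was 777 higher and 592 lower as reported, 633 and 739 after quantile normalization, and 643 and 820 with voom. Read depth limits Hoxc9 and Hoxc10, and wt Hoxc8 in replicates 1 and 2.

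The replicate labels run from 1 to 4 in both groups, while the titles number the wt samples 5 to 8. Deviations of same-numbered libraries correlated at 0.16, -0.023, -0.0045 and 0.25. Trex replicates 1 and 4 correlated best with the wt library of their own number, and trex replicates 2 and 3 did not. These values cannot settle whether same-numbered samples were paired, and the labels name no litters. With the replicate number as a block 687 genes were called, and the adjusted p was 0.0308 for Hoxc6 and 0.00284 for Hoxc8.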
